A study of Mus musculus with 21 samples.

Results

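The genes described here are the 78 nuclear genes for mitochondrial ribosomal proteins whose symbols are Mrpl or Mrps followed by a number and at most 1 letter, out of 24984 genes in the whole-gene count table. They were chosen by symbol, and no measured value enters the rule. All 78 passed the filter on low counts, as did 16959 genes in all, and the lowest count of any member in any of the 20 libraries used was 22. By textbook placement, 26 members encode proteins of the small (28S) subunit and 51 proteins of the large (39S) subunit. The last, Mrps36, carries a ribosomal name but is now known as a component of the 2-oxoglutarate dehydrogenase complex and was placed in neither subunit.

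Mitochondria translate the few proteins of their own genome, all of them subunits of the respiratory chain and ATP synthase, on a ribosome of their own. Its RNAs come from mitochondrial DNA, but every one of its proteins is encoded in the nucleus, made in the cytosol and imported. Some of these proteins descend from bacterial ribosomal proteins, and others exist only in mitochondrial ribosomes. Neurons depend on this machinery for the oxidative phosphorylation that supports firing and synaptic transmission.

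The cultures were primary cortical cells of CD1 mice of both sexes at day 17 in vitro, and the assay was BrU-seq, in which bromouridine fed to living cells marks RNA made during the labelling and only marked RNA is sequenced. Cultures received DMSO or 25 µM MM401, an inhibitor of the binding of the histone methyltransferase MLL1 to its partner WDR5, for 30 min. They then received 40 µM bicuculline methiodide, which blocks GABA-A receptors and so raises network firing, or water for 1 h or 4 h, and all had 2 mM bromouridine over the last 30 min. The 7 groups used were DMSO with water for 4 h, DMSO with bicuculline for 1 h or 4 h, MM401 with water for 1 h or 4 h, and MM401 with bicuculline for 1 h or 4 h. Each group had 3 libraries, described as biological replicates, except that the third library of MM401 with water for 4 h was left out because it held 316741 counts, 0.503% of the median of the others. A DMSO group with water for 1 h was not analysed here, so both DMSO responses are set against the same water group at 4 h and the 1 h comparison in DMSO also differs in incubation time.

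The 20 libraries held 49886348 to 87939384 counts, of which 33978 to 81623 fell in members, 0.0681% to 0.112% of a library. Levels are given as CPM, counts scaled to a common library size, after TMM normalization, counted over the whole gene span, introns included. Changes are on the log2 scale, with standard errors (SE) from edgeR's quasi-likelihood test. A gene is called when its Benjamini-Hochberg adjusted p over all tested genes is under 0.05. The summed level of 6 neuron markers was 2731 to 3149 CPM in DMSO with water, 3785 to 4050 at 1 h and 4574 to 4734 at 4 h of bicuculline, and 3, 4, 4 and 4 of them were called higher and 1 lower in the 4 responses to bicuculline (1 h and 4 h in DMSO, then 1 h and 4 h under MM401). Of 5 astrocyte markers, 2, 0, 3 and 3 were called higher, and their sum was 443 to 666 CPM in DMSO with water and 717 to 823 at 1 h and 577 to 656 at 4 h of bicuculline, the latter overlapping water. Under MM401 it was higher in bicuculline without overlap, at 517 to 696 in water and 777 to 846 at 1 h, then 414 to 508 and 569 to 647 at 4 h. The sum of 6 oligodendrocyte-lineage markers was also higher in bicuculline without overlap, at 134 to 150 CPM in DMSO with water, 156 to 169 at 1 h and 168 to 180 at 4 h, and 2, 3, 2 and 2 were called higher. Under MM401 that sum was 140 to 144 in water and 166 to 171 in bicuculline at 1 h, then 136 to 147 and 171 to 176 at 4 h. The microglia sum was 26.0 to 30.1 CPM in DMSO with water, 23.4 to 30.3 at 1 h and 31.1 to 36.6 at 4 h of bicuculline. Under MM401 it was 27.1 to 33.1 in water and 29.4 to 32.2 in bicuculline at 1 h, then 25.1 to 28.5 and 35.3 to 39.9 at 4 h. It overlapped water at 1 h in both arms, and 0, 1, 0 and 3 of 5 tested markers were called higher. The sum of 3 endothelial markers was between 1.44 and 3.01 CPM in all 20 libraries. In cultures of mixed cells, fewer cells of a type and less RNA per cell cannot be told apart, and the part of cell makeup in the results was not tested.

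Promoter sequence shows what the genes share at their starts. RefSeq promoter windows on mm10, from 250 bases before to 50 after the start site, matched 68 members. The 150 bases upstream of the start site are printed for 5 of them, chosen because the results below turn on them or because they carry the motif described: Mrps24 (chr11:5707702-5707851, minus strand) had the largest decrease in DMSO, Mrpl10 (chr11:97041432-97041581, plus) and Mrpl3 (chr9:105053118-105053267, plus) were called lower in all 4 responses, Mrpl32 (chr13:14613038-14613187, minus) had the highest level per kilobase, and Mrps6 (chr16:92058186-92058335, plus) was called higher. Each runs 5′ to 3′ toward the gene, and capitals mark matches to NRF1 (GCGCATGCG), ETS (CCGGAAG) or SP1 (GGGGCGGGG) letters on either strand.
Mrps24: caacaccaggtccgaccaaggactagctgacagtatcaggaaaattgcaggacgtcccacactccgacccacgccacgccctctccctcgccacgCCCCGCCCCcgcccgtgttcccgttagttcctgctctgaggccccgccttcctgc
Mrpl10: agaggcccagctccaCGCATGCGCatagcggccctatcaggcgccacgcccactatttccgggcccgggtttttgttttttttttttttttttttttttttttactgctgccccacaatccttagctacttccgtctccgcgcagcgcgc
Mrpl3: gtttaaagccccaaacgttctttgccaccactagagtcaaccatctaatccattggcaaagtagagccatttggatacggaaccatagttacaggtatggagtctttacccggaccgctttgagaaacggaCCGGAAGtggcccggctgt
Mrpl32: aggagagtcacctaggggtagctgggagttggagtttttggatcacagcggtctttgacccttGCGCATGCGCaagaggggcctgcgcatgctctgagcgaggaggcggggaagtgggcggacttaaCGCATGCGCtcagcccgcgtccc
Mrps6: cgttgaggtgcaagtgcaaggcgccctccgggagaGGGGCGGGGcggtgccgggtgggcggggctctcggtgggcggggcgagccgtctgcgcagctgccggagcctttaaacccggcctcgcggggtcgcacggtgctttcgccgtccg

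Over the whole 300-base window, the letters of 3 factors known for nuclear genes of mitochondria were more frequent in members than in all 12807 tested genes with a window. NRF1 letters, bound by nuclear respiratory factor 1, were in 7 of 68 member promoters (10.3%), against 3.27% of all and 4.28% of 3035 promoters of other genes of like span and level. ETS letters, read by GABPA and its relatives, were in 23 (33.8%), against 15.5% and 24.2%. YY1 letters (AAGATGGCG) were in 8 (11.8%), against 2.60% and 3.43%.

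Letters read by activity-regulated factors (CRE and AP-1), the E-box and general promoter elements (SP1 and TATA) were at or below their frequency over all tested genes. The CRE letters TGACGTCA were in 2 member promoters (2.94%, against 3.01% of all), the AP-1 letters TGACTCA in 2 (2.94%, against 3.74%), the E-box CACGTG in 5 (7.35%, against 9.75%), SP1 letters in 13 (19.1%, against 20.02%) and TATAAA in 4 (5.88%, against 7.996%). Between the 17 members called lower in all 4 bicuculline comparisons and the 15 with a window that were called in none, ETS letters were in 7 and 6, SP1 letters in 4 and 1, YY1 letters in 3 and 1, CRE and TATA letters each in 0 and 2, and NRF1, AP-1 and E-box letters each in 1 and 1. These counts are small and their differences were not tested. NRF1 letters on opposite strands can overlap, as in Mrpl32, and a match is only a run of letters.

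Members lay on 17 chromosomes, with spans from 0.826 kb (Mrpl53) to 121.7 kb (Mrps28) and a median of 7.47 kb, against 23.1 kb for all tested genes. Per kilobase of span, nascent RNA in DMSO with water ranged 7.61-fold, from 0.417 CPM per kb for Mrps28 to 3.17 for Mrpl32, with a median of 1.16. Mrpl53 (2.81), Mrps34 (2.29), Mrps17 (2.16) and Mrpl33 (2.07) followed Mrpl32, and Mrpl23 (0.435), Mrpl54 (0.439) and Mrpl48 (0.503) lay just above Mrps28. Mrps34 had an SD of 1.08 on a mean of 2.64 CPM and Mrpl54 an SD of 0.462 on 0.968 CPM, so their places in that order are loose. Mrpl32 had an SD of 0.288 on 8.68 CPM.

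As a group, the members' nascent RNA was lower in bicuculline than in water. Their summed level was 901 to 972 CPM in DMSO with water, 753 to 842 CPM after 1 h of bicuculline and 769 to 815 CPM after 4 h. Under MM401 it was 888 to 922 CPM in water for 1 h, 878 to 895 in water for 4 h, 742 to 848 in bicuculline for 1 h and 774 to 810 in bicuculline for 4 h. In both arms the water libraries were all above the bicuculline libraries. The small-subunit sum was 381 ± 12.2 CPM in DMSO with water, 338 ± 15.1 at 1 h and 325 ± 8.54 at 4 h of bicuculline (SD, n = 3). The large-subunit sum was 557 ± 26.4, 456 ± 30.5 and 459 ± 15.97 CPM.

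Counted gene by gene, 51 of 78 members were called lower and 2 higher after 1 h of bicuculline in DMSO, where 24.5% of all tested genes were called lower and 20% higher. After 4 h, 49 were lower and 2 higher, against 25.5% and 23.7% of all. Under MM401, 37 were lower and 1 higher at 1 h, against 21.8% and 18.1%, and 22 were lower and 1 higher at 4 h, against 21.7% and 23.0%. The median member log2 fold change was -0.35 and -0.34 in DMSO and -0.23 and -0.17 under MM401, at 1 h and 4 h, while the medians of all tested genes were -0.04, -0.02, -0.00 and 0.02. The log2 fold change was below 0 for 74, 71, 61 and 55 of the 78.

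Other genes of like span and level were called lower more often than higher. Of 3833 other tested genes whose span and mean level both lay between the members' 10th and 90th percentiles, 45.8%, 45.0%, 36.4% and 26.8% were called lower in the 4 responses in the same order, and 8.43%, 10.7%, 10.2% and 17.7% higher. The corresponding member shares were 65.4%, 62.8%, 47.4% and 28.2%. The median log2 fold changes of these genes of like span and level were -0.26, -0.23, -0.16 and -0.09. The match was by range only. Their median span was 10.7 kb and median level 2.90 log2 CPM, against 7.47 kb and 2.80 for all 78 members, including those outside the range. The gap between members and like genes in the share called lower was narrowest at 4 h under MM401, which was not so for the medians. Neither gap was tested.

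**Figure D1:**
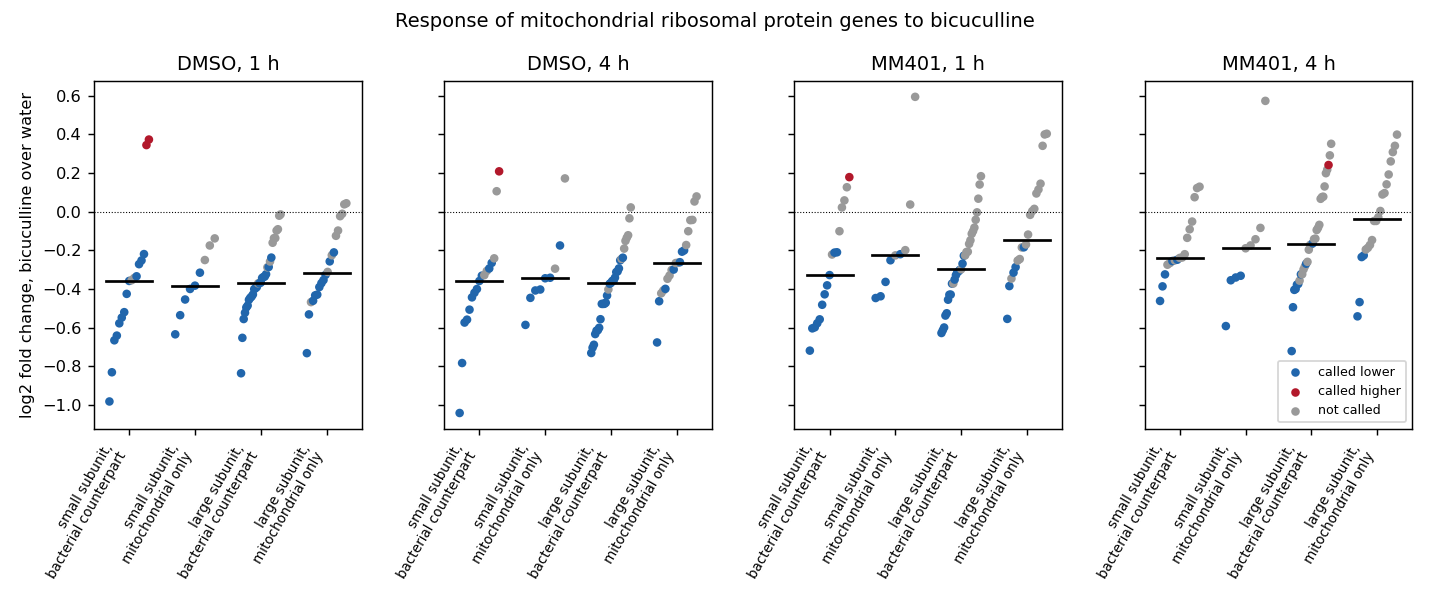
Each point is 1 member's log2 fold change, bicuculline over water, in the 4 responses, sorted within the structural classes of 17, 9, 31 and 20 genes from left to right (Mrps36 is not drawn), with blue called lower, red called higher, grey not called and the bar at the class median. All class medians lie below 0, and the medians lie closer to 0 under MM401 at 4 h, where the large-subunit class found only in mitochondria has a median of -0.04.

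In DMSO, members of both subunits were called lower. After 1 h in DMSO, 19 of 26 small-subunit and 32 of 51 large-subunit members were called lower, with medians of -0.37 and -0.34. As shares these were 73.1% and 62.7%, against 24.5% of all tested and 45.8% of like genes. After 4 h the counts were 19 and 30, or 73.1% and 58.8%, against 25.5% and 45.0%. Under MM401 they were 16 and 21 at 1 h, or 61.5% and 41.2%, against 21.8% and 36.4%. At 4 h under MM401 they were 9 and 13, or 34.6% and 25.5%, against 21.7% and 26.8%, so the large-subunit share there was near the background. Members with a bacterial counterpart were called lower in 34 of 48 cases at 1 h in DMSO, and those found only in mitochondria in 17 of 29, with medians of -0.36 and -0.33. These differences between classes were not tested.

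Mrps24, which encodes uS3m at the mRNA entry of the small subunit, had the largest decrease among members in DMSO. Its level was 3.08, 4.64 and 4.63 CPM in the 3 DMSO libraries with water, 1.78, 2.74 and 1.69 after 1 h of bicuculline, and 1.96, 2.15 and 1.93 after 4 h. No bicuculline library reached the lowest water library. The log2 fold change was -0.98 ± 0.18 (SE) at 1 h and -1.04 ± 0.18 at 4 h (edgeR adjusted p = 0.000112 and 4.45e-05). Under MM401 it was 2.77, 3.62 and 3.49 CPM in water and 1.83, 2.23 and 2.42 in bicuculline at 1 h, a change of -0.60 ± 0.18 (edgeR adjusted p = 0.0112), a call lost with all 21 libraries and without bicuculline 1 h replicate 1 (range over settings -0.81 to -0.50). At 4 h under MM401 the values were 2.79 and 3.27 CPM in water and 2.69, 2.49 and 2.38 in bicuculline, again without overlap, but the change of -0.27 was not called.

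Mrps2, for the small-subunit protein uS2m, showed a similar order. Water libraries in DMSO gave 5.62, 6.18 and 7.40 CPM, bicuculline for 1 h gave 4.06, 3.69 and 3.02, and 4 h gave 3.68, 3.72 and 3.78. Both bicuculline groups lay below water and overlapped each other, and the log2 fold changes were -0.83 ± 0.12 and -0.78 ± 0.12 (edgeR adjusted p = 6.89e-06 and 9.75e-06). Under MM401 the change was -0.56 ± 0.12 at 1 h (edgeR adjusted p = 0.000753), and at 4 h it was -0.25 ± 0.13 and was not called (edgeR adjusted p = 0.126).

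Other small-subunit members with bacterial counterparts had smaller changes in DMSO than these, and they differed in call. Mrps16, for bS16m, was at 2.89, 3.12 and 3.84 CPM in DMSO with water and at 2.36, 1.88 and 1.99 after 1 h of bicuculline, a log2 fold change of -0.66, and it had the largest 1 h decrease under MM401, -0.72 ± 0.14 (edgeR adjusted p = 0.000369). Mrps11, for uS11m, changed by -0.64 at 1 h in DMSO and by -0.60 under MM401, and Mrps18c by -0.58 in both. Mrps12, for uS12m of the decoding centre, was at 2.06, 2.39 and 2.36 CPM in water and 1.55, 1.85 and 1.22 after 1 h of bicuculline, without overlap. It was called lower there, at -0.55 ± 0.17 (edgeR adjusted p = 0.0124), and in none of the other 3 responses, where its changes were -0.31, -0.10 and 0.08. The 1 h call was lost with all 21 libraries, with the gene length correction and without bicuculline 1 h replicate 3 or water replicate 2, over a range of -0.74 to -0.36. Mrps18b changed by -0.27 at 1 h and -0.44 at 4 h in DMSO, both called, and by -0.22 and -0.24 under MM401, neither called. Its 1 h call was lost with all 21 libraries, the length correction, only the compared groups, and without bicuculline 1 h replicate 3 or water replicate 2 or 3, with values from -0.46 to -0.07. The Mrps18c call at 1 h in DMSO was lost with the length correction.

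Among small-subunit members found only in mitochondria, Mrps31 fell most at 1 h in DMSO. Its level was 19.6, 21.7 and 22.5 CPM in water and 12.8, 14.6 and 13.7 in bicuculline, so that it changed by -0.63 ± 0.09 (edgeR adjusted p = 7.37e-06). By 4 h it stood at 15.5, 16.9 and 17.9 CPM, higher than at 1 h by 0.29 ± 0.09 (edgeR adjusted p = 0.0161). That step was not called with all 21 libraries, with plain library sizes or without bicuculline 1 h replicate 1 or 3 or 4 h replicate 3 (0.21 to 0.34). Mrps27, a pentatricopeptide repeat protein of this subunit, went the other way with time. It was at 39.8, 37.5 and 37.1 CPM in DMSO with water, 33.4, 35.7 and 34.9 at 1 h and 29.3, 27.7 and 29.6 at 4 h, and its largest change was -0.59 ± 0.07 at 4 h under MM401 (edgeR adjusted p = 2.79e-07).

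In the large subunit, Mrpl10 and Mrpl12 encode proteins of the flexible stalk that engages translation factors, and Mrpl11 the protein at the stalk base. Mrpl10 was at 12.7, 12.3 and 13.99 CPM in DMSO with water, 10.02, 8.94 and 9.83 after 1 h of bicuculline and 9.62, 7.76 and 9.17 after 4 h. Both bicuculline groups lay below water and overlapped each other. The gene was called lower in all 4 responses, with log2 fold changes of -0.44, -0.56, -0.63 and -0.37 (DMSO 1 h and 4 h, MM401 1 h and 4 h). The largest of these, under MM401 at 1 h, had an SE of 0.09 and an edgeR adjusted p of 6.83e-06.

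Mrpl11 and Mrpl12 were called lower in DMSO at 4 h and not at 1 h. Mrpl11 was at 3.21, 2.58 and 3.07 CPM in water and overlapped it after 1 h at 2.61, 3.10 and 2.54, then lay below it after 4 h at 1.84, 1.87 and 1.77. The change at 4 h was -0.69 ± 0.16, and the step from 1 h to 4 h was -0.60 ± 0.16 (edgeR adjusted p = 0.000896 and 0.00475). Mrpl12 changed by -0.26 at 1 h, which was not called, and by -0.70 ± 0.15 at 4 h (edgeR adjusted p = 0.000528). Under MM401, Mrpl11 was called lower at 4 h, at -0.49, though not without bicuculline 4 h replicate 1 or water 4 h replicate 1 (-0.66 to -0.37), and Mrpl12 changed by -0.10 and -0.08, neither called.

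Mrpl3, for uL3m near the peptidyl transferase centre, was among the most precisely measured members. It was at 37.9, 40.6 and 40.6 CPM in DMSO with water, 31.4, 31.5 and 29.6 after 1 h of bicuculline and 28.6, 29.0 and 28.1 after 4 h. Under MM401 it was at 37.1, 39.3 and 39.5 CPM in water for 1 h and 28.1, 30.2 and 31.3 in bicuculline, then 38.4 and 37.3 against 26.6, 29.1 and 30.4 at 4 h. No bicuculline library overlapped its water group, and the 4 log2 fold changes of -0.37, -0.48, -0.37 and -0.40 each had an SE of 0.06 or 0.07 (edgeR adjusted p = 3.26e-05, 7.56e-07, 3.33e-05 and 4.23e-05).

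Other large-subunit members with sizeable decreases included Mrpl23, whose bacterial relative lines the exit of the nascent chain tunnel. It was at 3.56, 2.98 and 3.53 CPM in DMSO with water and 2.16, 1.98 and 2.27 after 1 h of bicuculline, with changes of -0.65 at 1 h, -0.73 at 4 h and -0.60 at 1 h under MM401, and it lost all 3 calls when all 21 libraries were fitted. Mrpl21 had the largest decrease at 4 h under MM401, from 8.28 and 6.88 CPM to 4.82, 4.23 and 4.73, or -0.72 ± 0.14 (edgeR adjusted p = 0.000312). Mrpl58, a peptidyl-tRNA hydrolase built into the large subunit, was called lower in all 4 responses, at -0.46, -0.68, -0.38 and -0.54. Mrpl57 changed by -0.73 at 1 h in DMSO and was called nowhere else, and Mrpl28 and Mrpl55 by -0.61 each at 4 h in DMSO. Mrpl37 (-0.47) and Mrps14 (-0.46) completed the larger decreases at 4 h under MM401, and Mrpl55 changed by -0.40 there. Of these, Mrps14 was not called without water 4 h replicate 2, and Mrpl55 was not called with all 21 libraries or without bicuculline 4 h replicate 1 or 3 or water 4 h replicate 1 (-0.53 to -0.33). The Mrpl28 call in DMSO was lost with the length correction and without bicuculline 4 h replicate 1 or 3 or water replicate 2 (-0.90 to -0.41).

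**Figure D2:**
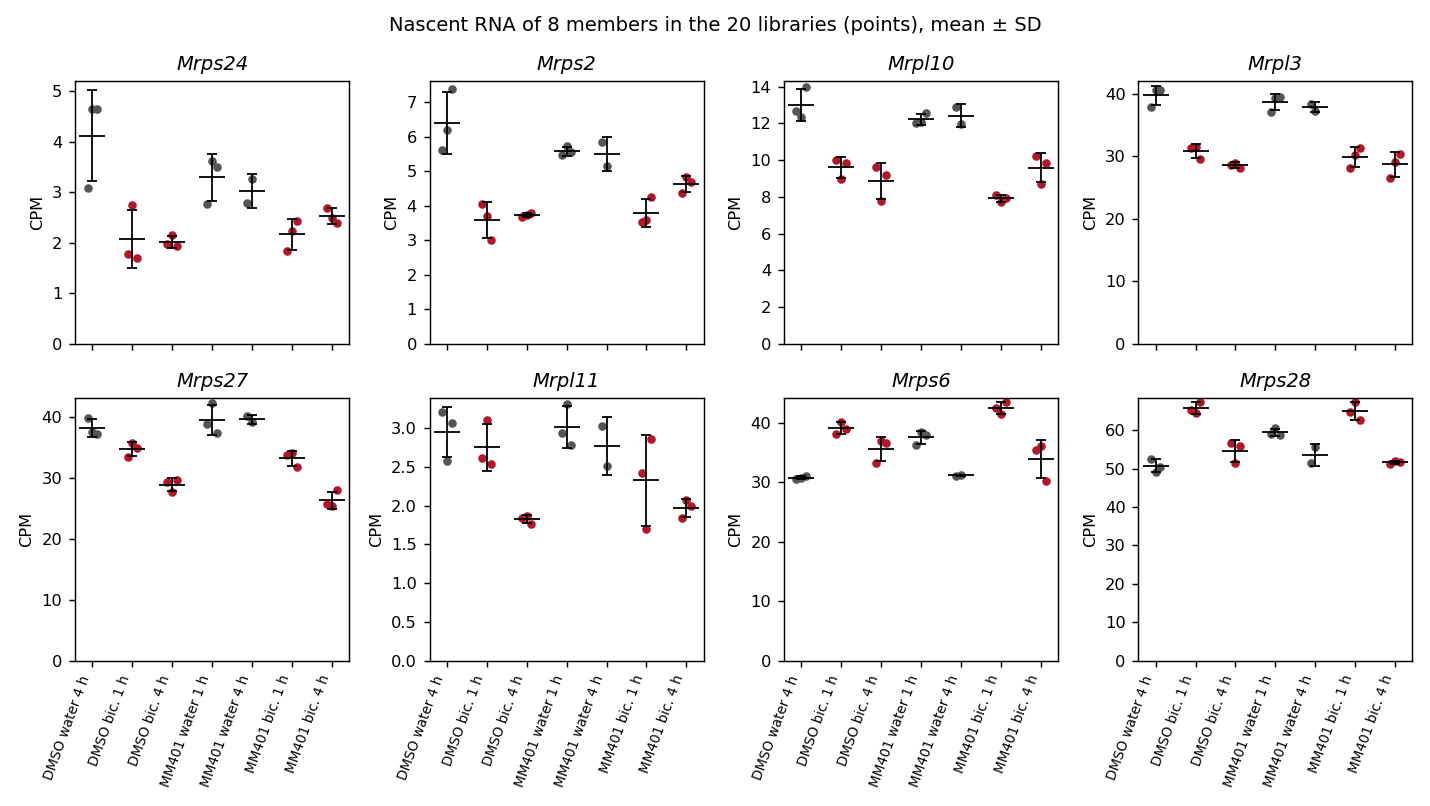
Nascent RNA of 8 members in CPM (vertical axes from 0) in the 7 groups, with a point for each of the 20 libraries (grey water, red bicuculline) and the mean ± SD in black. Mrpl3 in water lies between 37.1 and 40.6 CPM and in bicuculline between 26.6 and 31.5, while Mrps6 and Mrps28 are higher after 1 h of bicuculline in DMSO than in water.

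Across the 4 responses, 17 members were called lower in all, 20 in 3, 11 in 2, 9 in 1 and 21 in none. The share lower in all 4 was 21.8% of members, 18.5% of genes of like span and level and 9.59% of all tested genes, and the share lower in none was 26.9%, 41.5% and 60.2%. The 17 were Mrps5, Mrps9, Mrps10, Mrps14, Mrps21, Mrps22 and Mrps33 of the small subunit and Mrpl1, Mrpl3, Mrpl10, Mrpl18, Mrpl21, Mrpl35, Mrpl37, Mrpl42, Mrpl55 and Mrpl58 of the large subunit. No member was called lower in one response and higher in another, and the log2 fold change was below 0 in all 4 for 51 members. The responses at 1 h and 4 h in DMSO share their water libraries. At 1 h, 35 members were lower in both arms, 68.6% of the DMSO list and 94.6% of the MM401 list, against 70.6% and 88.8% for like genes and 70.4% and 79.2% for all tested genes. At 4 h 22 were, 44.9% and 100% of the lists, against 56.2% and 94.2% for like genes and 65.6% and 77.3% for all.

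Only 4 members were called higher in any response. Mrps28, the longest member, which encodes the small-subunit protein bS1m, was at 52.6, 49.1 and 50.5 CPM in DMSO with water and at 65.3, 64.4 and 67.4 after 1 h of bicuculline, or 0.37 ± 0.05 (edgeR adjusted p = 3.86e-06). That comparison differs in incubation time. Under MM401, where water for 1 h was at hand, Mrps28 was at 59.1, 60.5 and 58.7 CPM in water and 64.8, 67.3 and 62.6 in bicuculline, a change of 0.13 that was not called although the libraries did not overlap.

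Mrps6, for bS6m, was called higher in 3 responses, at 0.34 ± 0.06 and 0.21 ± 0.06 in DMSO and 0.18 ± 0.06 at 1 h under MM401 (edgeR adjusted p = 0.000102, 0.00728 and 0.0236). It was at 30.5, 30.7 and 31.0 CPM in DMSO with water, and 38.1, 40.1 and 39.0 after 1 h of bicuculline. In water under MM401, Mrps6 was at 36.2, 38.4 and 37.8 CPM at 1 h and 31.1 and 31.2 at 4 h. That change of -0.27 missed the threshold (edgeR adjusted p = 0.0743). With plain library sizes its changes at 4 h in DMSO and at 1 h under MM401 turned to -0.07 and -0.03, and its 1 h change in DMSO was no longer called. That setting also moved the median of all tested genes down in these responses, as given in the last section, so the turn was not particular to Mrps6. The 4 h call was also lost with all 21 libraries and the length correction, and the MM401 call with all 21 libraries and without bicuculline 1 h replicate 1 or water 1 h replicate 1. Slc5a3, an inositol transporter gene on the same strand, covers 54.1% of the Mrps6 span, so reads of the shared stretch cannot be told apart by position.

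Mrps36 was called higher at 4 h in DMSO, at 7.27, 6.61 and 6.31 CPM against 6.04, 5.27 and 5.06 in water, or 0.30 ± 0.09 (edgeR adjusted p = 0.00854). Mrpl20, for bL20m, was called higher at 4 h under MM401, at 10.4, 10.3 and 10.4 CPM against 8.79 and 8.78, or 0.24 ± 0.09 (edgeR adjusted p = 0.0356). Neither pair of groups overlapped, but both calls depended on the setting. The Mrps36 call was lost with plain library sizes, with only the compared groups and without bicuculline 4 h replicate 1 or water replicate 2 or 3, over a range of 0.03 to 0.49. The Mrpl20 call was lost with all 21 libraries, plain library sizes, no filter, only the compared groups and each of 5 libraries left out, over a range of 0.17 to 0.25. Mrpl41, one of the mitochondrial-only proteins of the large subunit, was called in no response in the main fit. Its libraries spread widely, from 2.13 to 5.27 CPM after 1 h of bicuculline in DMSO. With each library left out, its change there ran from -0.82 to -0.19 and was called lower in 1 of 6 fits.

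Between 1 h and 4 h of bicuculline, members split. In DMSO 6 were higher and 6 lower at 4 h, where 19.1% of all tested genes were higher and 15.2% lower. Under MM401 13 were higher and 5 lower, against 17.5% and 16% of all. With plain library sizes the splits were 2 and 8 in DMSO and 15 and 3 under MM401, and with a correction for gene length 9 and 6 under MM401. Without bicuculline 1 h replicate 3 the DMSO split was 3 and 11, and with all 21 libraries 2 and 6 in DMSO and 7 and 4 under MM401. Median member changes were 0.01 in DMSO and 0.09 under MM401. The latter ran from 0.05 without bicuculline 1 h replicate 2 to 0.16 without replicate 3, and was 0.02 with the length correction.

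Higher at 4 h than at 1 h in both arms were Mrpl39 (0.34 in DMSO and 0.36 under MM401), Mrps31 (0.29 and 0.34), Mrps36 (0.43 and 0.34), Mrpl13 (0.31 and 0.29) and Mrpl42 (0.23 and 0.34). Mrps35 was called higher in DMSO (0.21) and was at 0.13 under MM401, where it was not called. In DMSO, the calls of Mrpl13, Mrpl42 and Mrps35 were lost with all 21 libraries and with plain library sizes, those of Mrpl42 and Mrps35 also with only the compared groups, and that of Mrps35 with the length correction. With each of 6 libraries left out, Mrpl13 lost its call once (bicuculline 1 h replicate 3), Mrpl42 in 2 fits (1 h replicate 2, 4 h replicate 1) and Mrps35 in 4 (1 h replicates 1 and 3, 4 h replicates 2 and 3). Mrps16 (0.56), Mrpl20 (0.41), Mrps11 (0.40), Mrpl32 (0.39), Mrpl30 (0.38), Mrpl15 (0.32), Mrpl10 (0.28) and Mrpl36 (0.53) were called higher under MM401 and not in DMSO, and the difference between the arms was not tested here. Mrpl10, Mrpl15 and Mrpl36, and Mrpl13 and Mrpl42 under MM401, fell outside the naming rule and were added after their values were seen. Mrpl36, at 0.883 to 1.57 CPM in the 6 bicuculline libraries under MM401, lost its call in 11 of 13 other fits (0.36 to 0.61) and Mrpl10 in 6 (0.21 to 0.36). Mrpl13 lost it under MM401 with all 21 libraries and without bicuculline 1 h replicate 1 or 4 h replicate 2 (0.23 to 0.36), Mrpl15 without 1 h replicate 1 or 4 h replicate 3 (0.25 to 0.40), and Mrpl42 in none of the 13. Under MM401 Mrpl32 lost its call with all 21 libraries, the length correction, only the compared groups and without bicuculline 1 h replicate 1 or 2 or 4 h replicate 1 or 3 (0.25 to 0.58). Mrps11 lost it with all 21 libraries and without 1 h replicate 2 or 4 h replicate 1 (0.31 to 0.49), and Mrpl30 without 1 h replicate 1 or 4 h replicate 3 (0.28 to 0.50). Under MM401 Mrps31 also lost its call with all 21 libraries and Mrps36 with the length correction. Mrpl39 is an example of a transient decrease. It was at 19.7, 20.6 and 19.3 CPM in DMSO with water, below that at 1 h with 16.1, 17.8 and 15.9, and back at 19.97, 21.3 and 21.6 at 4 h.

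Lower at 4 h than at 1 h in both arms were Mrps27 (-0.26 and -0.33), Mrps28 (-0.27 and -0.33) and Mrpl48 (-0.24 and -0.22), the 3 longest members. Mrpl11 (-0.60), Mrpl12 (-0.45) and Mrps23 (-0.27) were called lower in DMSO, and Mrps6 (-0.32) and Mrpl37 (-0.30) under MM401. Leaving out single libraries ended the Mrps23 call in 5 of 6 fits (all but without bicuculline 1 h replicate 3; -0.38 to -0.22 over settings) and the Mrpl12 call in 3 of 6 (1 h replicate 2, 4 h replicates 1 and 2; -0.57 to -0.30). Under MM401, plain library sizes ended the calls of Mrpl37 and Mrpl48, and all 21 libraries that of Mrpl37. In water under MM401, no member was called between 1 h and 4 h (edgeR; 3 at an unadjusted p under 0.05), where 0.867% of all tested genes were called, while DESeq2 and a fit on only these groups each called Mrps6 lower.

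MM401 against DMSO gave no called member in any of its comparisons. In water at 4 h, edgeR called 0 members and 0.0826% of all tested genes, with 4 members at an unadjusted p under 0.05, and the members nearest the threshold were Mrpl16 (-0.38 ± 0.13), Mrpl15 (-0.24 ± 0.10) and Mrps24 (-0.45 ± 0.20). In bicuculline at 1 h it called 0 members and 0.00590% of all genes, with 3 members under 0.05 unadjusted: Mrpl10 (-0.28), Mrpl36 (-0.51) and Mrps16 (-0.35). In bicuculline at 4 h it called 0 members and 0.00% of all genes, with 6 members under 0.05 unadjusted, led by Mrpl12 (0.43), Mrps2 (0.31) and Mrpl20 (0.20). DESeq2 also called 0 members in each of these 3.

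The difference between the bicuculline responses of the arms was tested as an interaction, and smaller counts under MM401 are not by themselves a difference. At 4 h, 0 members and 0.00% of all tested genes were called by edgeR and 0 members by DESeq2, with 10 members at an unadjusted p under 0.05. The members nearest the threshold were Mrps2 (0.53 ± 0.18), Mrps24 (0.78 ± 0.27) and Mrpl15 (0.38 ± 0.14), with edgeR adjusted p of 0.229, 0.233 and 0.237. The median over members was 0.19, against 0.15 for like genes, and became 0.003 with the gene length correction. At 1 h, with both responses set against water at 4 h, 0 members and 0.00% of all genes were called by edgeR and 0 members by DESeq2, with 1 member, Mrpl34, under 0.05 unadjusted, and the median was 0.07. Without DMSO water replicate 1, edgeR called Mrps24 and Mrpl16 lower under MM401 in water at 4 h, and Mrps24, Mrps2 and Mrpl15 in the 4 h interaction.

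The share of counts in long genes varied between libraries and, at 4 h, differed between water and bicuculline in opposite directions in DMSO and under MM401. Genes of 100 kb or more took 62.2%, 58.0% and 56.9% of counts in the DMSO water libraries, 61.0% to 62.5% after 1 h of bicuculline and 62.3% to 62.4% after 4 h. Water replicate 1 overlapped the 1 h bicuculline libraries and lay just below those at 4 h, so the difference in DMSO rests on water replicates 2 and 3. Under MM401 they took 58.7% to 61.3% in water and 60.1% to 63.5% in bicuculline at 1 h, which overlapped, and 61.3% to 61.4% in water and 58.4% to 60.9% in bicuculline at 4 h, which did not. The part of this share in the results was not tested. By span, 13 of 28 members under 5 kb, 27 of 35 between 5 and 15 kb and 11 of 15 at 15 kb or more were called lower at 1 h in DMSO. Other genes in the members' range of levels were called lower in 29.6%, 48.9% and 32.7% of cases in those bins. At 4 h under MM401 the member counts were 3, 11 and 8, and the other genes' shares 6.13%, 28.5% and 32.2%. Other genes under 5 kb had a median above 0 under MM401, at 0.04 at 1 h (128 called higher and 103 lower of 734) and 0.13 at 4 h (178 and 45), where the medians of the 28 short members were -0.10 and -0.04.

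When each library's trend with gene span was fitted and removed, fewer members were called in DMSO. The counts called lower became 29 at 1 h and 27 at 4 h in DMSO and 26 and 25 under MM401. These are 37.2%, 34.6%, 33.3% and 32.1% of members, against 27.4%, 28.6%, 26.7% and 28.8% of like genes in the same fit. The median member changes became -0.19 and -0.17 in DMSO and -0.15 and -0.19 under MM401, from -0.35, -0.34, -0.23 and -0.17. The 4 responses were thus closer to each other than without the correction. In the fit as first described, leaving out bicuculline 1 h replicate 3 in DMSO reduced the called members from 53 to 35. Leaving out bicuculline 1 h replicate 1 under MM401 reduced them from 38 to 24. Calls over all genes in those fits are not given here, so the loss cannot be read as particular to members.

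**Figure D3:**
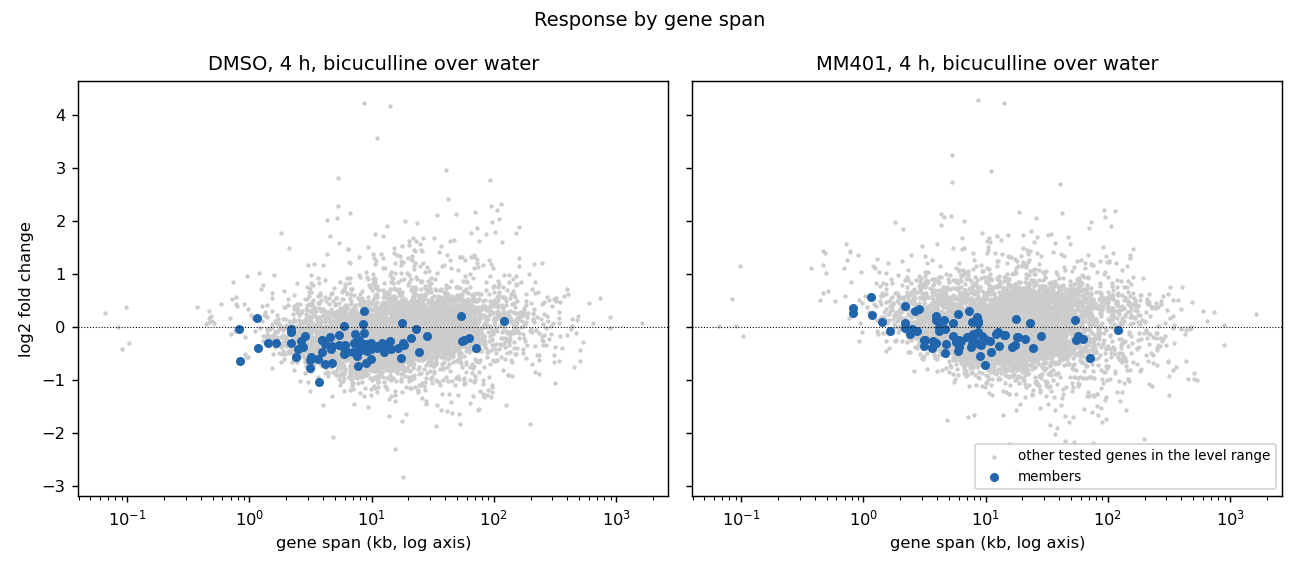
Log2 fold change of bicuculline over water at 4 h (vertical) against gene span in kb (horizontal, log axis) in DMSO (left) and under MM401 (right), with members in blue and other tested genes in the members' range of levels in grey. In DMSO members lie mostly below 0 at every span, whereas under MM401 many of the members under 5 kb lie near or above 0, with a median of -0.04 for the 28.

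Many members share a start region with another gene. For 31 of 78 (39.7%), a gene on the opposite strand started within 1000 bases, against 17.3% of tested genes. Members with such a partner were called lower in 21, 18, 15 and 9 of 31 cases in the 4 responses, and those without in 30, 31, 22 and 13 of 47. Of 30 tested partners, 14, 11, 11 and 11 were called lower and 2, 4, 4 and 6 higher. Of all tested genes, 24.5%, 25.5%, 21.8% and 21.7% were lower and 20%, 23.7%, 18.1% and 23.0% higher. Of genes of like span and level to the members, 45.8%, 45.0%, 36.4% and 26.8% were lower and 8.43%, 10.7%, 10.2% and 17.7% higher. The partners include Mrps11 and Mrpl46, which are members, and a difference of partners from other genes was not tested. Both genes of a pair were lower in 8, 8, 6 and 5 pairs.

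Pairs differed in whether the partner followed. Mrpl21 and Ighmbp2, with starts 32 bases apart, fell together in all 4 responses, by -0.49 and -0.50 at 1 h and -0.60 and -0.62 at 4 h in DMSO. Mrps5 and Zfp661 also fell together, at -0.42 and -0.83 at 1 h in DMSO. Mrps11 and Mrpl46 are both members, with starts 42 bases apart, and only Mrps11 was called lower, at -0.64 against -0.12 at 1 h in DMSO. Mrpl13 was lower at -0.34 while its partner Mtbp was higher at 0.23, and Rab6a, whose start is 715 bases from that of Mrpl48, was higher at 0.71 while Mrpl48 changed by 0.04. These pairs were chosen after their values were seen.

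Overlap with other genes touched 12 members. Besides Mrps6, at least 10% of the span was shared for Mrpl43 with Twnk (54.6%), Mrps25 with Nr2c2 (24.4%), Mrpl24 with Rrnad1 (21.4%) and Mrpl19 with Gcfc2 (15.5%), all on the opposite strand. Whether counting used strand is not given in the sources used here, so these 5 values are uncertain. Among the 66 members with no overlapping gene, 47, 43, 35 and 18 were called lower in the 4 responses. Of all tested genes, 24.5%, 25.5%, 21.8% and 21.7% were called lower, and of genes of like span and level 45.8%, 45.0%, 36.4% and 26.8%. The count at 4 h under MM401 is near the share of like genes.

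Lists of genes that work with the mitochondrial ribosome are read against the 24.5%, 25.5%, 21.8% and 21.7% of all tested genes called lower in the 4 responses. Genes of like span and level to the members were lower in 45.8%, 45.0%, 36.4% and 26.8%, and the lists were not matched for span and level. Of 5 tested ribosomal proteins that carry other symbols, 3 were called lower at 1 h in DMSO: Dap3 at -0.61 ± 0.05, Gadd45gip1 at -0.59 ± 0.16 and Ptcd3 at -0.27 ± 0.05 (edgeR adjusted p = 6.69e-09, 0.00524 and 0.00032). Dap3 was back to -0.14 at 4 h, still called. Chchd1 (-0.11) and Aurkaip1 (-0.16) were not called at 1 h.

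Translation factors of mitochondria were lower in 10, 10, 10 and 7 of 11 cases in the 4 responses, and none was higher. At 1 h in DMSO the initiation factor Mtif3 and the elongation factor Tufm each changed by -0.61, and at 4 h under MM401 Tsfm, the exchange factor of Tufm, changed by -0.66. Factors that assemble or modify the ribosome were lower in 20, 17, 18 and 10 of 24, with the rRNA methyltransferase Mrm2 at -0.79, -0.83 and -1.07 in the first 3 and at -0.14, not called, in the last. Only Nsun4 was called higher, at 0.28, at 1 h in DMSO.

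Mitochondrial aminoacyl-tRNA synthetases and related enzymes were lower in 9, 14, 10 and 15 of 20, the first near the share of genes of like span and level. Yars2 fell in all 4, at -0.72, -0.71, -0.64 and -0.55, while Nars2 rose in all 4, at 0.36, 0.49, 0.32 and 0.19, and Fars2 was higher at 1 h in both arms, at 0.20 and 0.31, and lower at 4 h, at -0.16 and -0.17. Factors that copy and transcribe mitochondrial DNA were lower in 8, 7, 7 and 3 of 13, the last near the share of all genes (23.1% against 21.7%), among them Mterf1a (-1.02) and Mterf2 (-0.79) at 1 h and the elongation factor Tefm (-0.72) at 4 h in DMSO. Mterf1a and Mterf1b are close copies, so their split of reads is uncertain.

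Of 15 nuclear regulators known for mitochondrial genes, 2, 3, 3 and 3 were called higher and 2, 4, 5 and 3 lower. These are 13.3% to 20% higher and 13.3% to 33.3% lower, around the shares of all tested genes, so the counts are no result about the list, and its members are given singly. Ppargc1a, the coactivator PGC-1alpha, rose in all 4, at 0.45, 0.42, 0.42 and 0.23, and Myc did too, at 0.62, 0.42, 0.76 and 0.85. Mycn fell by 0.85 and 0.57 in DMSO and by 0.39 at 1 h under MM401 on the log2 scale. Gabpa, a subunit of the ETS factor GABP, changed by -0.23 at 1 h in DMSO and -0.26 at 1 h under MM401, both called.

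**Figure D4:**
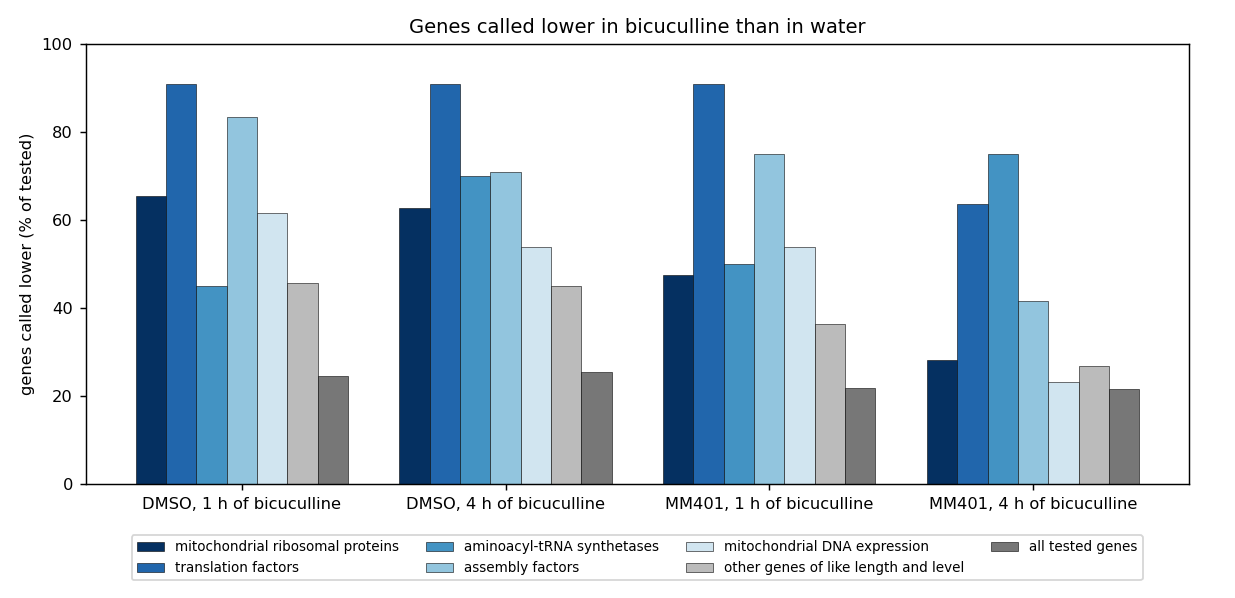
Share of genes called lower in bicuculline than in water (percent of tested, axis from 0 to 100) in the 4 responses, for the 78 members, the lists of genes that work with them, 3833 other genes of like span and level, and all tested genes. The member share falls from 65.4% at 1 h in DMSO to 28.2% at 4 h under MM401, where like genes are at 26.8%, and 15 of 20 synthetases are lower there.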

How the data were processed

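The authors' deposited table holds raw read counts per gene over whole gene spans; per the submitters' processing notes, Bowtie2, UMI-tools, featureCounts, deepTools, DESeq2 and mm10 were used, with roles and versions not given in the sources used here. Gene starts in the table count from 0 and were raised by 1. One fit on 20 libraries (edgeR 4.0.16, limma 3.58.1, R 4.3.3) used TMM, filterByExpr (minimum count 10, minimum total 15), robust quasi-likelihood tests and Benjamini-Hochberg adjustment over 16959 genes; fits were tested on simulated data. Common biological variation was 8.77%. Members and gene lists were chosen with earlier results of these data known. Structural classes follow the mitoribosome nomenclature, with an exception for Mrps18a and Mrps18b. These carry mitochondria-specific names there but were counted as having a bacterial counterpart. The placements of Mrps28, Mrpl47 and Mrpl55 were corrected after values were seen. Named genes are the up to 8 largest called changes per direction above 2 CPM, the 3 smallest p where none was called, and 8 members fixed by role. Replicates of a group differed by more than sampling noise in all 19 pairs (chi-square per degree of freedom 6.17 to 78.5). Replicate numbers were taken to pair samples where all 3 correlations of their deviations were over 0.1. Only MM401 against DMSO in bicuculline at 4 h passed (0.150, 0.107 and 0.172). Bicuculline at 4 h against 1 h in DMSO came close (0.166, 0.199 and 0.0898), and 10 of 27 correlations in all were over 0.1. Alternatives were DESeq2 1.42.0, plain library sizes, no filter, all 21 libraries, only the compared groups, a replicate block, a gene length offset (a smooth trend of each library on log2 span) and leaving out each library. Promoter sequences are RefSeq's.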

Additional observations from a re-analysis of the deposited data

How the results depend on the processing

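Under the 7 alternative settings, the median member change stayed below 0 in the 4 responses to bicuculline, and the counts there moved by over 1.5 times only where given next. With the gene length offset, called members went from 53 to 32 and from 51 to 31 in DMSO at 1 h and 4 h, and medians to -0.19 and -0.17, while the 1 h median under MM401 went from -0.23 to -0.15. The same setting moved the median for MM401 against DMSO in water at 4 h from -0.13 to -0.0132 and the 4 h interaction median from 0.19 to 0.00272. With all 21 libraries, counts were 35 at 1 h in DMSO, 23 at 1 h under MM401 and 11 for 4 h against 1 h under MM401, with a shallow library in the fit. Plain library sizes shifted the median of all genes to -0.23, -0.30, -0.21 and -0.06 in the 4 responses and member medians to -0.55, -0.62 and -0.43 in the first 3; they also gave -0.0772 for 4 h against 1 h in DMSO, -0.23 and 0.14 for MM401 against DMSO at 4 h in water and bicuculline, and 0.39 for the 4 h interaction. DESeq2 and the fit on only the compared groups each called 1 member, Mrps6, in water at 4 h against 1 h.

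Leaving out each library gave 35 to 55 and 24 to 43 called members at 1 h in DMSO and under MM401, 12 to 22 at 4 h under MM401, 0 to 2 for MM401 against DMSO in water and 0 to 3 in the 4 h interaction. Medians ran from -0.42 to -0.26 at 1 h in DMSO, from -0.0906 to 0.0486 for 4 h against 1 h in DMSO and from -0.0149 to 0.12 for the 1 h interaction. A group left with a single library is assumed to vary like the others. The replicate block gave 54, 55, 38 and 25 called members in the 4 responses and changed no count by over 1.5 times. The pairing it assumes passed the cut on correlations in 1 comparison, where it also called 0. Named members that changed sign: Mrpl11 at 1 h in DMSO (0.10, length offset); Mrps6 at 4 h in DMSO and 1 h under MM401 (-0.0667 and -0.0331, plain library sizes); Mrpl41 at 1 h under MM401 (-0.20 plain sizes, -0.0133 replicate block, -0.0277 length offset, and -0.418 to 0.207 with each library left out); and Mrps12 at 4 h under MM401 (-0.20 with 21 libraries, -0.0024 plain sizes, -0.0885 length offset, and -0.0655 to 0.204 with each library left out). With each library left out, Mrpl12 ran from -0.291 to 0.0437 at 1 h and from -0.193 to 0.00522 at 4 h under MM401. The causes were not tested.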
